A study of Brachypodium distachyon with 6 samples.

Results

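This account concerns 4 loci of Brachypodium distachyon that encode auxin carriers, followed in RNA-seq of roots with and without nodule-like structures. The loci were taken by identifier from the deposited counts: SoPIN1 (Bradi4g26300), PIN1a (Bradi1g45020), PIN1b (Bradi3g59520) and AUX1 (Bradi2g55340). All 4 were in the table, as 5 of its 42868 transcripts, and 4 of those 5 transcripts had counts and passed the low-count filter. The tested roots came from seedlings of line Bd21, grown for 7 days on nitrogen-poor medium, soaked as whole plants for 1 h in 50 µM 2,4-dichlorophenoxyacetic acid (2,4-D) and taken 7 days later. Untreated roots of Bd21, from the same medium and the same time point, were the controls, and the labels do not say whether those plants were soaked without hormone. Each group had 3 biological replicates with RNA isolated one by one. For the treated libraries the source label names the nodule-like structures, while the extraction protocol names roots that contain them. It is thus not clear from the labels how much unmodified root the treated RNA held.

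PIN proteins are plasma membrane carriers that export auxin from the cell, and their placement on one side of a cell sets the direction in which auxin moves on. AUX1 is a proton-coupled importer of auxin. In Arabidopsis it is known for its part in root gravitropism, and it also takes up 2,4-D, which PIN proteins export poorly. SoPIN1 belongs to a PIN clade that grasses have and Arabidopsis lost. In the Brachypodium inflorescence SoPIN1 is known from epidermal cells around new organs, and PIN1a and PIN1b from inner tissue and forming veins.

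Library totals ran from 12528548 to 14146109 counts. Levels are given as CPM (the count over the library total, times 1000000) and fold changes as log2 of 2,4-D over untreated from edgeR, which scales libraries by TMM factors. In profiles of log2 CPM over transcripts, 2,4-D replicate 3 had a Pearson r of 0.921 and 0.910 with 2,4-D replicates 1 and 2, which had an r of 0.979 with each other. 2,4-D replicate 2 stood closer to the untreated libraries (r of 0.933 to 0.935) than to 2,4-D replicate 3. Transcripts carry no gene names in the table, so markers of root, shoot or dividing cells were not analysed here, and neither were other named auxin genes.

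Each PIN locus had a single annotated transcript, and no other annotated transcript overlapped it. SoPIN1 is transcript Bradi4g26300.2 on chromosome 4 (31631562 to 31634507, plus strand, 4 exons, 2370 bp of exon). PIN1a is Bradi1g45020.1 on chromosome 1 (43427219 to 43430526, minus strand, 6 exons, 2471 bp). PIN1b is Bradi3g59520.1 on chromosome 3 (58715065 to 58718368, plus strand, 6 exons, 2674 bp). AUX1 has a pair of transcripts on chromosome 2, Bradi2g55340.1 (54048971 to 54055871) and Bradi2g55340.2 (54048967 to 54055871), both on the plus strand with 8 exons. Coordinates are those of annotation version 2.1, which the counts were made on.

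**Figure D1:**
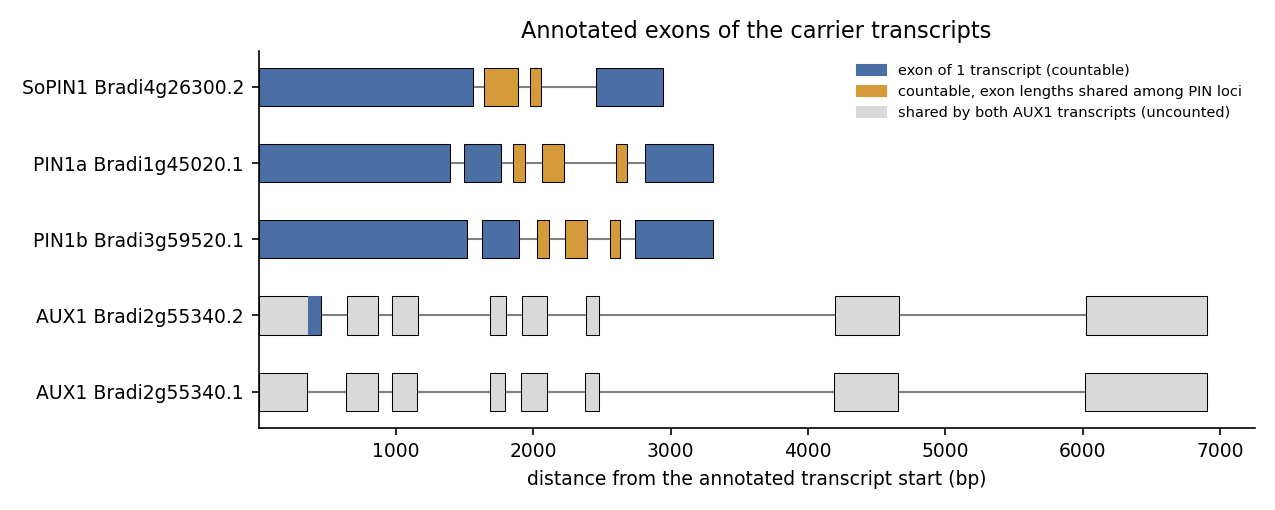
Exons of the 5 carrier transcripts as boxes, by distance in bp from the annotated transcript start, with introns as lines. Blue and orange stretches belong to 1 transcript, grey ones to both AUX1 transcripts. Orange marks the exons of 86, 158 and 77 bp in PIN1a and PIN1b and those of 244 and 77 bp in SoPIN1. In AUX1 only 100 bp, all in exon 1 of Bradi2g55340.2, belong to 1 transcript.

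Transcripts of 2 PIN loci, SoPIN1 and PIN1a, were higher in 2,4-D-treated roots, and that of PIN1b did not pass the test. The log2 fold change was 3.32 for SoPIN1 and 2.01 for PIN1a, the second of these a 4.04-fold difference. Called higher were thus 2 of the 4 carrier transcripts tested, where 1.48% of all 20061 tested transcripts were called higher and 0.703% lower (adjusted p under 0.05 in the quasi-likelihood test of edgeR). The median log2 fold change was 1.12 over the 4 carrier transcripts and 0.02 over all tested ones. In RNA of bulk tissue, more cells of a type and more RNA per cell cannot be told apart. Nor can a different tissue in the treated samples, as their share of nodule-like structures is not clear from the labels.

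SoPIN1 had 69.6, 59.3 and 44.3 CPM in 2,4-D replicates 1, 2 and 3, against 3.51, 3.04 and 9.90 CPM in untreated replicates 1, 2 and 3. The lowest treated library was above the highest untreated one, and in untreated roots replicate 3 stood well above the others. These levels rested on 578 to 928 counts in the treated and 43 to 140 in the untreated libraries. The 95% exact binomial interval of untreated replicate 3 (8.33 to 11.7 CPM) lay above that of untreated replicate 1 (2.55 to 4.71 CPM), so their gap was beyond counting error. The means were 57.7 ± 12.7 CPM in 2,4-D-treated roots and 5.48 ± 3.83 CPM in untreated roots (SD, n = 3 each). The log2 fold change was 3.32 (SE 0.49, 95% interval 2.16 to 4.49, edgeR adjusted p = 0.0281). From the highest, it ranked 223 by log2 fold change among 20061 tested transcripts. On the log2 scale its SD was 0.33 in treated and 0.93 in untreated roots. The median SD over 13745 transcripts was 0.29 in treated and 0.33 in untreated roots. Those were the tested transcripts with a mean of at least 5 CPM over the 6 libraries and counts in every library. They were not matched to SoPIN1 in level.

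PIN1a had the highest CPM of the 3 PIN transcripts in every treated library. It had 782.7, 706.8 and 381.6 CPM in 2,4-D replicates 1, 2 and 3, against 124.8, 113.5 and 199.0 CPM in untreated replicates 1, 2 and 3. The groups did not overlap, with 2,4-D replicate 3 the lowest of its group and untreated replicate 3 the highest of its own, as for SoPIN1. The means were 623.7 ± 213.1 CPM in 2,4-D-treated roots and 145.8 ± 46.4 CPM in untreated roots (SD, n = 3 each). The log2 fold change was 2.01 (SE 0.33, 95% interval 1.22 to 2.81, edgeR adjusted p = 0.0368). Of all tested transcripts, 26.8% had groups that did not overlap and 16.8% had every treated library above every untreated one.

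PIN1b had 222.2, 237.3 and 164.5 CPM in 2,4-D replicates 1, 2 and 3, against 155.6, 172.3 and 175.1 CPM in untreated replicates 1, 2 and 3. 2,4-D replicate 3 lay within the range of the untreated libraries, so the groups overlapped. The means were 208.0 ± 38.4 CPM in 2,4-D-treated roots and 167.7 ± 10.6 CPM in untreated roots (SD, n = 3 each). The fold was 1.17 with a 95% interval of 0.870 to 1.57 (edgeR adjusted p = 0.527). This interval leaves room for a rise of up to 1.57-fold but not for one of the size fitted for PIN1a.

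**Figure D2:**
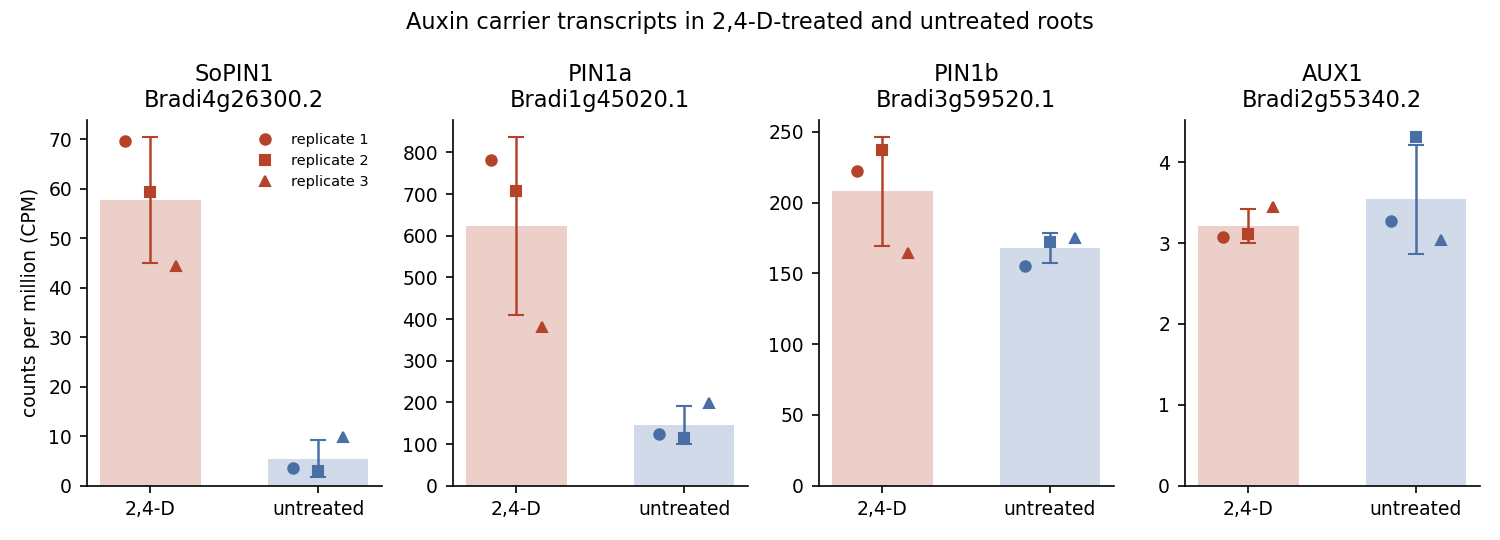
CPM (linear axis from 0) of the 4 carrier transcripts with counts, in 2,4-D-treated (left) and untreated (right) roots. Bars are means, whiskers 1 SD, and symbols the 3 replicates. For SoPIN1 and PIN1a every treated library lies above every untreated one, and for PIN1b and AUX1 the groups overlap.

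The calls of SoPIN1 and PIN1a depended on which libraries entered the fit. For SoPIN1 the edgeR adjusted p was 0.119 without 2,4-D replicate 1, 0.0710 without 2,4-D replicate 2, 0.0902 without untreated replicate 1 and 0.111 without untreated replicate 2. For PIN1a it was 0.136, 0.0864, 0.112 and 0.159 in the same order. Without 2,4-D replicate 3 or untreated replicate 3 both stayed called, at 0.0490 and 0.0173 for SoPIN1 and at 0.0298 and 0.0461 for PIN1a. The log2 fold change of SoPIN1 was 4.00 without untreated replicate 3, against 3.03 to 3.46 without any other single library. In these same fits, in the order given, 0.0776%, 0.349%, 0.236%, 0.0%, 0.944% and 1.34% of all tested transcripts were called higher. Without untreated replicate 2, where edgeR called 0 in either direction, 2714 had an unadjusted edgeR p under 0.05 and the DESeq2 Wald test called 1213. In that DESeq2 fit the adjusted p was 2.35e-07 for SoPIN1 and 0.000702 for PIN1a, so the loss of their calls there was particular to edgeR. Unadjusted edgeR p ran from 1.33e-05 to 0.00178 for SoPIN1 and from 0.000182 to 0.00372 for PIN1a when 1 library was left out. With all 6 libraries the DESeq2 Wald test gave an adjusted p of 1.06e-09 for SoPIN1 and 2.29e-06 for PIN1a, calling 6.56% of tested transcripts higher.

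**Figure D3:**
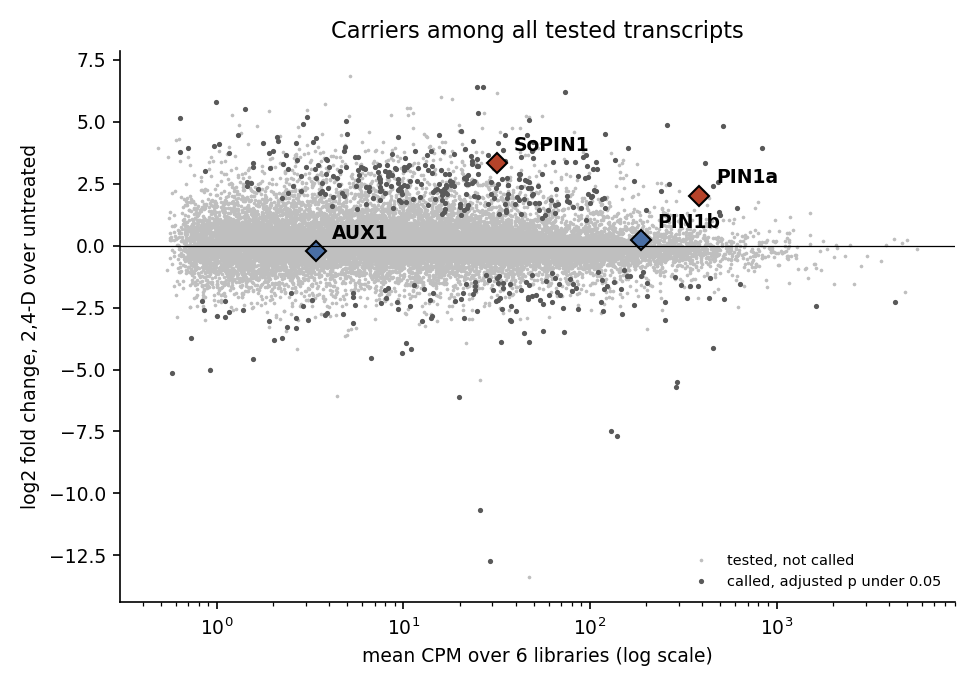
Log2 fold change of 2,4-D over untreated (vertical) against mean CPM over 6 libraries (horizontal, log scale) for 20061 tested transcripts. Dark points passed the edgeR test and grey ones did not. The carriers are diamonds, red where called and blue where not. PIN1a and PIN1b lie among the abundant transcripts, at log2 fold changes of 2.01 and 0.22.

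Levels of the PIN loci were compared with each other per length (CPM per kilobase of exon, RPKM). In treated roots PIN1a stood at 252.4 ± 86.2 RPKM, PIN1b at 77.8 ± 14.4 and SoPIN1 at 24.4 ± 5.36 (SD, n = 3), and this order held in every treated library. In untreated roots PIN1b stood at 62.7 ± 3.96 RPKM, PIN1a at 58.99 ± 18.8 and SoPIN1 at 2.31 ± 1.62 (SD, n = 3). PIN1b was above PIN1a in untreated replicates 1 and 2 and below it in untreated replicate 3, so the order of this pair in untreated roots was not settled. Among 16996 tested transcripts of loci with 1 transcript, PIN1a ranked 328 by mean RPKM in treated and 2155 in untreated roots. SoPIN1 ranked 5463 in treated and 13496 in untreated roots, and PIN1b ranked 1549 in treated and 2015 in untreated roots.

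As a share of the summed RPKM of the 3 PIN loci, PIN1a made up 73.8%, 71.5% and 65.8% in 2,4-D replicates 1, 2 and 3, against 45.9%, 41.1% and 53.6% in untreated replicates 1, 2 and 3. PIN1b made up 22.6% ± 3.44 in treated and 51.4% ± 7.17 in untreated roots (SD, n = 3 each). SoPIN1 made up 7.02% ± 0.872 in treated and 1.76% ± 0.892 in untreated roots (SD, n = 3 each). For none of the 3 loci did the shares of the groups overlap, in a design whose smallest two-sided exact permutation p is 0.1. The shares of a library add up to the whole, so these were not 3 separate results. The summed level itself was 354.6 ± 104.9 RPKM in treated and 124.0 ± 22.7 RPKM in untreated roots (SD, n = 3 each). As a smaller share of a larger sum, PIN1b therefore does not show a lower level.

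**Figure D4:**
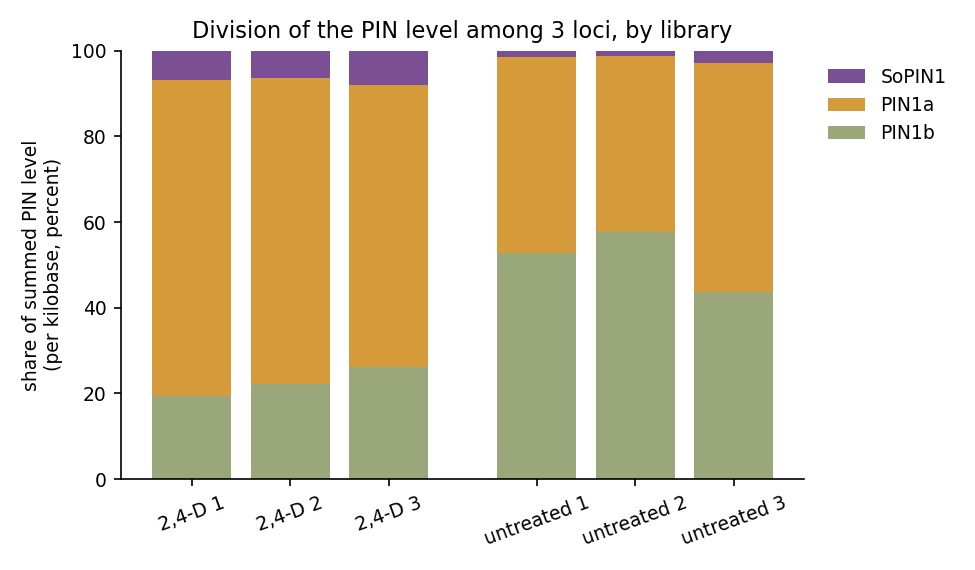
Share of each PIN locus in the summed RPKM of the 3 loci (percent, linear axis from 0 to 100), by library, with the 3 treated libraries on the left. PIN1a holds 65.8% to 73.8% in treated and 41.1% to 53.6% in untreated libraries.

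Ratios within a library do not depend on how libraries are scaled. The log2 ratio of PIN1a over PIN1b, per length, was 1.93, 1.69 and 1.33 in 2,4-D replicates 1, 2 and 3, against -0.20, -0.49 and 0.30 in untreated replicates 1, 2 and 3. SoPIN1 over PIN1b averaged -1.68 ± 0.17 in treated and -4.96 ± 0.88 in untreated roots, and SoPIN1 over PIN1a -3.33 ± 0.25 in treated and -4.83 ± 0.49 in untreated roots (SD, n = 3 each). Each of these 3 ratios was higher in every treated library than in every untreated one. They are not independent, as the log2 ratio of SoPIN1 over PIN1b follows from the others. The difference between the groups was 1.499 for SoPIN1 over PIN1a, 3.28 for SoPIN1 over PIN1b and 1.78 for PIN1a over PIN1b, all on the log2 scale. With 3 libraries a group, the two-sided exact permutation p was 0.1 for each, the smallest this design allows, and 0.12 after Benjamini-Hochberg adjustment over the 6 pairs of carriers compared, so none passed a threshold of 0.05.

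AUX1, the importer, was counted on a small part of its exons. Its transcripts share 2512 bp of exon, and fragments that lie in exons of several transcripts were generally left uncounted. Bradi2g55340.1 has no exonic base of its own and had 0 counts in every library. The floor of 3 counts was 0.212 to 0.239 CPM per library. The 95% exact binomial interval reached up to 0.261 to 0.294 CPM per library. These counts say nothing of its expression. Bradi2g55340.2 has 100 bp of its own, 4 bp at the start and 96 bp at the end of exon 1. It had 3.07, 3.11 and 3.45 CPM in 2,4-D replicates 1, 2 and 3, against 3.27, 4.31 and 3.04 CPM in untreated replicates 1, 2 and 3. The groups overlapped, and the counts behind these values were 41 to 61 per library. The fold was 0.856 with a 95% interval of 0.522 to 1.404 (edgeR adjusted p = 0.715).

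The level of AUX1 against the PIN loci could not be placed. On its whole length Bradi2g55340.2 stood at 1.23 ± 0.0795 RPKM in treated and 1.36 ± 0.259 RPKM in untreated roots (SD, n = 3 each). On its 100 bp alone it stood at 32.1 ± 2.08 in treated and 35.4 ± 6.77 in untreated roots (SD, n = 3 each). In untreated roots the first of these lies below SoPIN1 and the second above it. Fragments that also reach shared exons were generally uncounted, so the length open to counting is not known and neither value is a measured level. A change in Bradi2g55340.1, or in exons that both transcripts use, would not show in these counts.

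The PIN loci also share exon lengths, which played no part in their choice. Counted from the transcript start, exons 3, 4 and 5 of both PIN1a and PIN1b are 86, 158 and 77 bp long. SoPIN1 has an exon of 244 bp, the sum of 86 and 158, followed by one of 77 bp. A search of all 42868 transcripts for the run of 86, 158 and 77 bp found 7 loci, PIN1a, PIN1b and 5 others. A run of 186, 113, 184, 98 and 466 bp, exons 3 to 7 of AUX1, recurred at 1 other locus. This search was devised after values of these data had been seen, and it went by exon length alone. The files do not pair these 6 loci with names, so nothing is said here of what they encode.

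Among the 6 unnamed loci, 5 passed the low-count filter. Of these, 2 were called higher and 0 lower by edgeR, where 1.48% of all tested transcripts were called higher and 0.703% lower. Among the called ones, Bradi2g48170.1 passed the filter only through its treated libraries, so being tested at all depended on its level after 2,4-D. Bradi1g68350.1, with the exon run of AUX1, lies on chromosome 1 (67155740 to 67159546, plus strand, 7 exons, 1 annotated transcript). It had 22.0, 16.9 and 18.0 CPM in 2,4-D replicates 1, 2 and 3, against 1.76, 1.77 and 2.33 CPM in untreated replicates 1, 2 and 3. The replicates lay close together in both groups, and the groups were far apart. Its log2 fold change was 3.19 (SE 0.27, edgeR adjusted p = 0.00868), and 0.0527 without 2,4-D replicate 1 and 0.0667 without untreated replicate 2 were the adjusted p values past the threshold when 1 library was left out.

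Bradi2g48170.1, with the exon run of the PIN loci, lies on chromosome 2 (48507327 to 48509848, minus strand, 6 exons). It had 9.75, 5.14 and 6.90 CPM in 2,4-D replicates 1, 2 and 3, against 1.12, 0.636 and 0.495 CPM in untreated replicates 1, 2 and 3, the last 3 on 14, 9 and 7 counts. The 9 and 7 counts of untreated replicates 2 and 3 lie under the filter minimum of 10, so it passed through the treated group. Its log2 fold change was 3.17 (SE 0.47, edgeR adjusted p = 0.0270). The adjusted p was 0.0541 to 0.132 with any 1 library left out, so no such fit kept the call.

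The other 4 loci with the PIN run were not called. One on chromosome 1 with 6 exons had 59.9 ± 16.3 CPM in treated and 38.9 ± 11.4 CPM in untreated roots (SD, n = 3 each). One on chromosome 4 had 2.40, 1.52 and 5.68 CPM in 2,4-D replicates 1, 2 and 3, against 6.86, 7.21 and 14.9 CPM in untreated replicates 1, 2 and 3, with no overlap (log2 fold change -1.65, edgeR adjusted p = 0.190). One on chromosome 2 with 5 exons had 236 counts in 2,4-D replicate 3, against 3 to 34 in each of the other 5 libraries. The last, also on chromosome 2, had 9 to 13 counts in treated and 0 to 7 in untreated libraries and was not tested. Tested loci with the PIN run thus had log2 fold changes from -1.65 to 3.17.

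**Figure D5:**
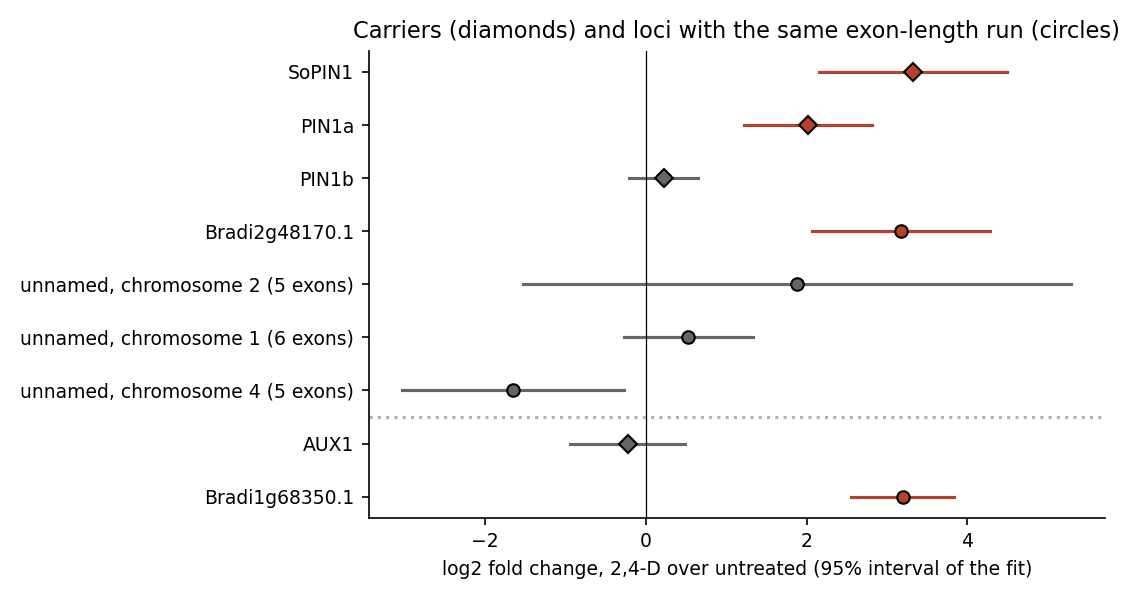
Log2 fold change of 2,4-D over untreated with the 95% interval of the edgeR fit, for the carriers (diamonds) and the unnamed loci that share their run of exon lengths (circles). Red marks adjusted p under 0.05. Above the dotted line are the PIN loci and the unnamed loci with the PIN run of exon lengths, with SoPIN1, PIN1a and Bradi2g48170.1 called. Below it are AUX1 and the unnamed locus with its run, Bradi1g68350.1, which was called. The grouping goes by exon length alone.

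Profiles most like those of the carriers were sought among 13767 to 13768 other tested transcripts with a mean of at least 5 CPM, by the distance of centred log2 CPM over the 6 libraries. For SoPIN1 the nearest was a 4-exon transcript on chromosome 3, at a distance of 0.53. It had 31.6, 23.0 and 16.2 CPM in 2,4-D replicates 1, 2 and 3, against 0.798, 0.636 and 4.39 CPM in untreated replicates 1, 2 and 3. For PIN1a it was a 4-exon transcript on chromosome 2, at a distance of 0.43, with 13.7 ± 4.88 CPM in treated and 3.51 ± 0.820 CPM in untreated roots (SD, n = 3 each). Neither transcript was called (edgeR adjusted p = 0.0722 for that nearest to SoPIN1 and 0.0530 for that nearest to PIN1a). Both had 2,4-D replicate 3 as the lowest treated library and untreated replicate 3 as the highest untreated one, like the carriers they resemble. They were chosen by distance over these same 6 libraries, so a like order of replicates follows from the choice. Both reached a mean of 5 CPM only through their treated libraries. Untreated means were 1.94 CPM for that nearest to SoPIN1 and 3.51 CPM for that nearest to PIN1a. The transcript nearest to SoPIN1 had 9 counts in untreated replicate 2, under the filter minimum of 10, so it passed the filter through the treated group. PIN1b and AUX1 had nearer neighbours, at distances of 0.10 and 0.11. This distance grows with how much a profile varies, so it does not compare likeness between carriers. Pearson r with the nearest by distance was 0.984 for PIN1b and 0.970 for AUX1, against 0.996 for both SoPIN1 and PIN1a. With Pearson r as the measure, a different transcript came first for each of the 4 carriers.

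The tested loci beside the carriers were looked at as well. Of the 16 loci that lie nearest, 2 on each side of each carrier and 1294 to 52594 bp away, 0 were called by edgeR, where 1.48% of all tested transcripts were called higher and 0.703% lower. An unadjusted edgeR p under 0.05 was found for 4 of the 16 and for 19.4% of all tested transcripts. The DESeq2 Wald test called 3 of the 16 higher, against 6.56% of all tested transcripts. The edgeR log2 fold changes of the 16 ran from -0.52 to 2.31. Next to SoPIN1, a 3-exon transcript 3658 bp away had 2.83 CPM in treated and 0.912 CPM in untreated roots on average (log2 fold change 1.53, edgeR adjusted p = 0.0945). Its 9 counts in untreated replicate 3 lie under the filter minimum of 10, so it was tested only through its treated libraries. On the other side, 1294 bp from SoPIN1, a transcript had 10.2 CPM in treated and 11.1 CPM in untreated roots on average (log2 fold change -0.21). Around PIN1a the 4 neighbours had log2 fold changes of -0.37 to 0.36.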

How the data were processed

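RNA of 3 2,4-D-treated and 3 untreated root samples was sequenced from stranded mRNA libraries, per the labels' protocols. Raw counts per transcript were made by the authors with featureCounts 1.4.3 on annotation version 2.1, per the file headers, from fragments of 50 to 1000 bp. The command sets no strand option and none to count a fragment for several transcripts. The aligner is not given in the sources used here. The summed exon length in bp is also as deposited.

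CPM, RPKM and shares were computed from column totals. The test was edgeR 4.0.16 in R 4.3.3 (quasi-likelihood, robust, TMM, filter by group with minimum count 10) on all transcripts of 6 libraries, adjusted by Benjamini-Hochberg. It was tested on simulated data. The binomial intervals of CPM and the floor (3 counts) cover counting error only. Intervals of fold changes come from the edgeR fit and include the spread among replicates. P-values rest on the spread among replicates, none of which matched another within sampling noise (chi-square). Alternatives were other scalings, filters, DESeq2 1.42.0, limma 3.58.1 with voom, counts per locus, fits without 1 library and a replicate block. Named are the carriers, the transcript with the nearest profile, 2 tested loci on each side, and loci that share exon lengths. The carriers and lists were chosen with earlier results of these data known. The gene table given describes assembly 3.0 and holds 0 identifiers of the form used in the counts, so lists by product name and sequences were not used here.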

Additional observations from a re-analysis of the deposited data

How the results depend on the processing

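SoPIN1 and PIN1a kept their direction in all 15 alternatives and their call in 10. The 5 that ended the call were the replicate block and the fits without replicate 1 or 2 of either group. PIN1b and AUX1 were called in 0 of 15. With one library left out, the log2 fold change ran from 3.03 to 4.00 for SoPIN1 and from 1.83 to 2.26 for PIN1a, 0 to 2 carriers were called, and all tested transcripts gave 0 to 276 higher and 0 to 94 lower calls, against 296 and 141. The DESeq2 Wald test called 1317 higher and 1011 lower. Deviations of same-numbered libraries correlated at -0.10, 0.35 and 0.089, and treated replicate 1 was closest to untreated replicate 2. The numbers were therefore not read as pairs. With a replicate block 170 were higher and 61 lower, 0 carriers were called, and the log2 fold change was 3.49 for SoPIN1 and 2.00 for PIN1a, with edgeR adjusted p of 0.0634 and 0.0893. Taken on its own 100 bp, AUX1 had a value per kilobase of 32.1 in treated and 35.4 in untreated roots, which is not a measured level. The 5-exon transcript on chromosome 2 with the PIN run turned to a log2 fold change of -0.081 with voom and -0.0088 with the block. Leaving out 1 library gave -1.78 to 2.47, the first without 2,4-D replicate 3, which held most of its counts. Runs of 2 exon lengths instead of 3, chosen after seeing the data, gave 14 unnamed loci instead of 6.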
